A study of Arabidopsis thaliana with 20 samples.

Results

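Leaf ageing was followed in a snrk2.4/snrk2.10 mutant of Arabidopsis thaliana in 10 of the 20 libraries of the study. The sample titles placed 5 libraries in the mutant at 25 days after sowing (DAS) and 5 in the mutant at 45 DAS. Both groups carry mutations in SNRK2.4 and SNRK2.10. Both came from rosette leaves of plants grown in a chamber under 16 h of light per day, with no treatment named. The parent ecotype is Col-0. The labels name no alleles, do not say which leaves of the rosette were taken, and do not say whether the 5 libraries of an age came from separate plants, so p-values measure the spread between these samples. The other 10 libraries, from Col-0 wild type at the same ages (5 at each), entered only the test of whether a change with age differed between the genotypes.

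Leaf senescence is the last stage of a leaf's life. The cell takes apart its chloroplasts, breaks down chlorophyll, protein, lipid and nucleic acid, and sends nitrogen, sugars and metals to growing organs and seeds. Transcription factors of the NAC and WRKY families and the hormones abscisic acid (ABA), ethylene, jasmonate and salicylic acid promote the process, whereas cytokinin delays it. SnRK2 proteins are plant protein kinases that act in osmotic stress and ABA signalling, and SNRK2.4 and SNRK2.10 belong to the subgroup that ABA itself does not activate.

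Transcripts were counted from their 3' ends. Library totals ran from 1414164 to 1991026 counts at 25 DAS (median 1564315) and from 615317 to 1827404 at 45 DAS (median 1400942). Levels are given as CPM, the counts divided by the TMM-scaled library size. SNRK2.4 had 2, 6, 9, 5 and 9 counts in the mutant libraries at 25 DAS and 2, 3, 4, 4 and 4 at 45 DAS, against 19 to 66 counts in wild type at 25 DAS and 73 to 113 at 45 DAS. SNRK2.10 had 67, 46, 54, 58 and 75 counts at 25 DAS and 64, 62, 31, 57 and 27 at 45 DAS, against 67 to 98 and 69 to 99 in wild type. The labels do not say where SNRK2.10 is altered, so its 3' tags do not check the mutation. Of the markers of other tissues, those of meristem summed to 0 CPM at 25 DAS and 0.207 CPM at 45 DAS, those of root to 0.866 and 0.166 CPM, and those of seed to 0.136 and 0 CPM. Floral organ markers summed to 7.07 and 16.8 CPM, of which SEP1 (AT5G15800) gave 4.35 and 9.65 CPM, and the part of floral tissue in the results was not tested. Of 4 tested epidermis and trichome markers, 4 fell, and of 4 tested guard cell markers 3 fell and 1 rose; 1 fell and 1 rose with library totals alone. Of 5 tested phloem markers 2 rose, 1 fell and 2 were not called (4 rose and 1 fell with library totals alone). SUC2 (the sucrose loader of companion cells) went from 127 ± 18.1 to 159 ± 21 CPM (mean ± SD, n = 5 libraries, here and below). Its log2 change was 0.32 with SE 0.12 (edgeR adjusted p = 0.0183, and 0.0529 to 0.0852 without younger library 3 or 5 or older library 2). The other riser, PP2-A1, had 140, 137, 120, 146 and 161 counts at 25 DAS and 730, 922, 457, 631 and 268 at 45 DAS. SEOR1, a sieve element protein, fell from 40.4 ± 8.17 to 2.01 ± 1.19 CPM. In whole leaves, fewer cells of a type and less RNA per cell cannot be told apart.

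Most of the leaf transcriptome differed between the ages. Of 13110 genes tested with edgeR's quasi-likelihood test (Benjamini-Hochberg adjusted p under 0.05), 9507 were called, which is 72.5% of those tested. Of these, 4804 (36.6%) were higher at 45 DAS and 4703 (35.9%) were lower, and 1240 rose and 1605 fell by at least 4-fold. For 59% of the tested genes the 5 younger and the 5 older libraries did not overlap. The background is high, and the counts of each list below are to be read against it. Before testing, a filter removed genes with low counts at both ages. A gene near 0 at 1 age passed it through the other age alone and had to differ, so it adds no support to the count of a list. The split rests on the scaling: TMM scaling put the median log2 fold change of all genes at 0.05, whereas scaling by library totals alone moved every gene up by about 0.68 (log2) and gave 7606 higher and 2935 lower calls. Changes below are relative to the TMM scale, and the lists whose direction turned under library totals are named where they occur. Of the tested loci 4218 overlap another annotated locus, and whether counting used strand is not given in the sources used here, so reads of such pairs cannot be told apart. Among the genes below this touches LHCB1.3, LHCB2.3, LHCA4, RCA, CHLI1, CRD1, VPEG, PHS2, ATG8A, CAT2, MT3, TT4, TT19, XCP1 and SNRK2.4.

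**Figure D1:**
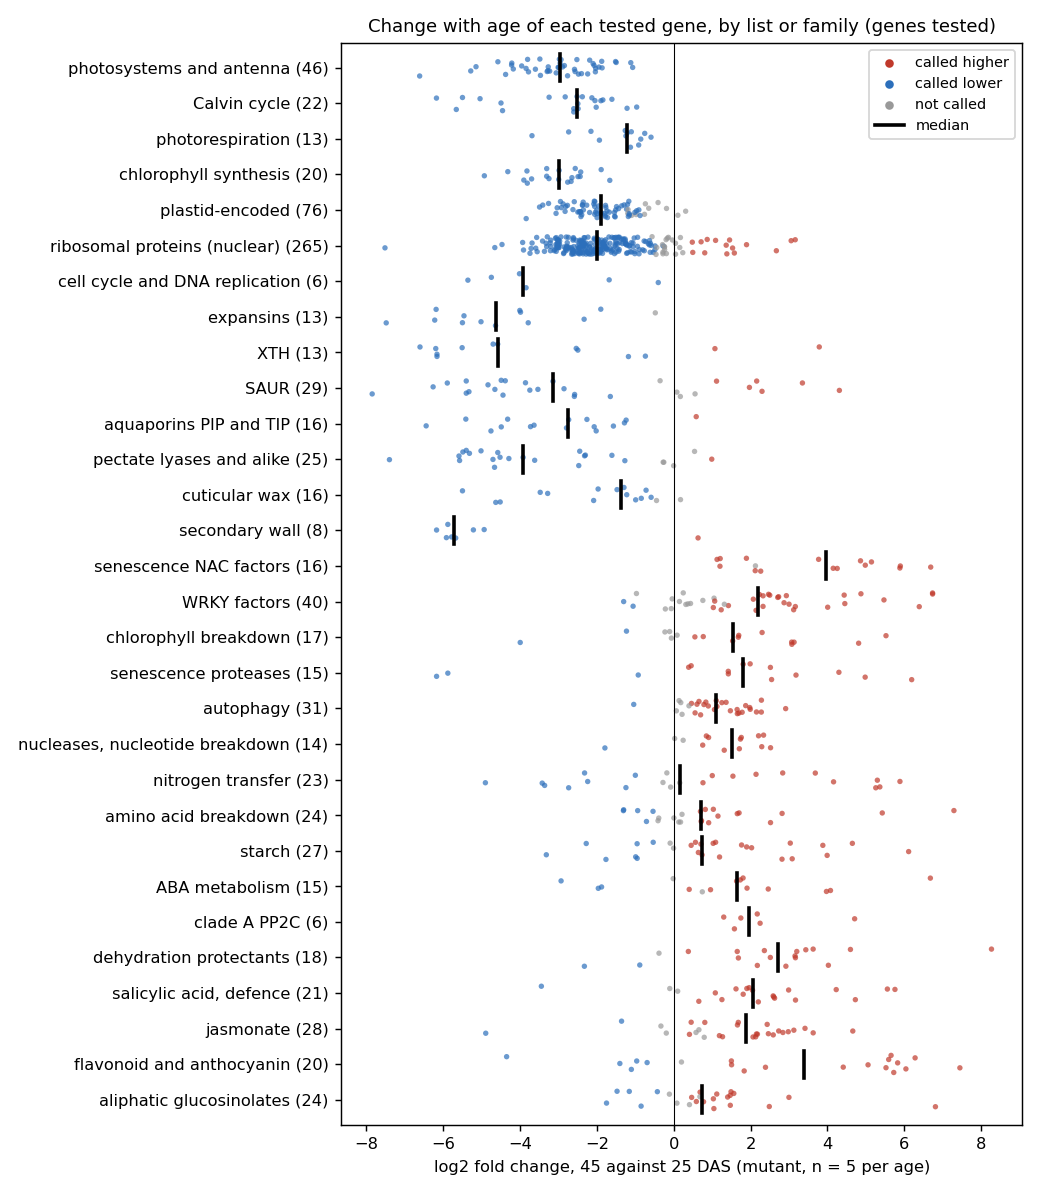
Log2 fold change from 25 to 45 DAS in the mutant (x axis) of every tested gene in 30 lists and families (y axis, number of tested genes in brackets); points are genes, coloured by the call, and the black bar is the median. All 46 photosystem genes lie left of 0. Of 16 tested senescence NAC genes 15 were called higher, some of them near 0 at 25 DAS and bound to differ.

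The photosynthetic apparatus fell. All 46 genes of the photosystem and antenna list were called lower, with a median log2 fold change of -2.96 and no overlap between ages for any of them. The background is 35.9% lower. Together they took 18.7 to 19.2% of all counts in the libraries at 25 DAS and 3.735 to 4.715% at 45 DAS. LHCB1.3, a chlorophyll-binding antenna protein of photosystem II, stood at 14555, 15239, 15385, 13830 and 14797 CPM at 25 DAS and 529, 873, 449, 466 and 785 CPM at 45 DAS. Each older library was far below each younger one (log2 change of -4.57 with SE 0.21, adjusted p = 1.10e-08). LHCA4, an antenna protein of photosystem I, stood at 13914, 14242, 14483, 13882 and 14463 CPM at 25 DAS and 1950, 2222, 1614, 1819 and 1707 CPM at 45 DAS, a shallower fall (log2 change of -2.93 with SE 0.09, adjusted p = 3.90e-16). LHCB2.3 had the lowest log2 fold change among genes with a mean of at least 5 CPM in the lower group, going from 2898 ± 119 to 28.1 ± 31.4 CPM (log2 change of -6.61 with SE 0.69, adjusted p = 2.43e-05). Its older libraries ran from 5.97 to 82 CPM, with library 2 the highest, so their spread was as large as their mean. PETE2, the major plastocyanin, went from 11510 ± 733 to 619 ± 134 CPM, and FD2, a leaf ferredoxin that hands on electrons after photosystem I, from 5508 ± 296 to 402 ± 46.7 CPM (log2 change of -3.78 with SE 0.09, adjusted p = 1.40e-16). The wider family of chlorophyll a/b binding proteins had 18 of 20 tested genes lower and 1 higher, ELIP1, a stress-induced relative of the antenna proteins, which went from 12.1 ± 4.2 to 58 ± 10.06 CPM (log2 change of 2.32 with SE 0.20, adjusted p = 2.57e-09).

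Carbon fixation followed. All 22 Calvin cycle genes were called lower (median -2.5), and their share of the counts went from 8.78 to 9.83% at 25 DAS to 1.31 to 1.67% at 45 DAS. RBCS1A, the most abundant nuclear transcript of the young leaves and a small subunit of Rubisco, stood at 37957, 38657, 35418, 33485 and 34491 CPM at 25 DAS and 1365, 2215, 1405, 1399 and 1610 CPM at 45 DAS. The groups were far apart (log2 change of -4.49 with SE 0.14, adjusted p = 6.32e-14). RBCS3B, another small subunit, fell more (log2 change of -5.49 with SE 0.36, adjusted p = 7.97e-07), and RCA, the Rubisco activase, fell less (log2 change of -1.84 with SE 0.08, adjusted p = 4.02e-14), keeping 2914 CPM. Photorespiration, which recovers the product of Rubisco's oxygenase reaction, had 13 of 13 tested genes lower but with a smaller median (-1.21). With library totals alone 10 of them were still called lower. GLN2, the plastid glutamine synthetase that recaptures photorespiratory ammonium, went from 2076 ± 122 to 312 ± 35 CPM.

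Chlorophyll synthesis was lower at each step measured: 20 of 20 tested genes were called lower, with a median of -2.99. HEMA1, which makes the first committed precursor, stood at 1083, 1205, 1130, 1094 and 1107 CPM at 25 DAS and 37.6, 91.7, 67.4, 118 and 123 CPM at 45 DAS (log2 change of -3.70 with SE 0.30, adjusted p = 2.56e-06). CHLI1, a subunit of the magnesium chelatase, went from 529 ± 26.7 to 35 ± 6.49 CPM (log2 change of -3.90 with SE 0.12, adjusted p = 3.54e-16), and CRD1, a cyclase subunit later in the path, from 1805 ± 118 to 190.3 ± 19.6 CPM. Transcripts of the plastid genome moved the same way: 65 of 76 tested loci were called lower and 0 higher (median -1.90). Their share of counts was 6.51, 7.30, 7.17, 5.30 and 5.90% at 25 DAS and 3.51, 3.15, 2.46, 2.65 and 3.47% at 45 DAS. The ages did not overlap (two-sided exact permutation test, p = 0.00794, the smallest that 5 against 5 can give). With library totals alone 55 of these loci were lower and 2 higher. The libraries were primed with oligo(dT), so plastid RNA, which is mostly without a long poly(A) tail, is caught only in part. The mitochondrial share differed by less, 0.124% ± 0.020 against 0.0898% ± 0.0254 (SD, n = 5; exact permutation p = 0.0635), and leaving out younger library 1 or older library 5 gave p = 0.0476 or 0.0317.

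**Figure D2:**
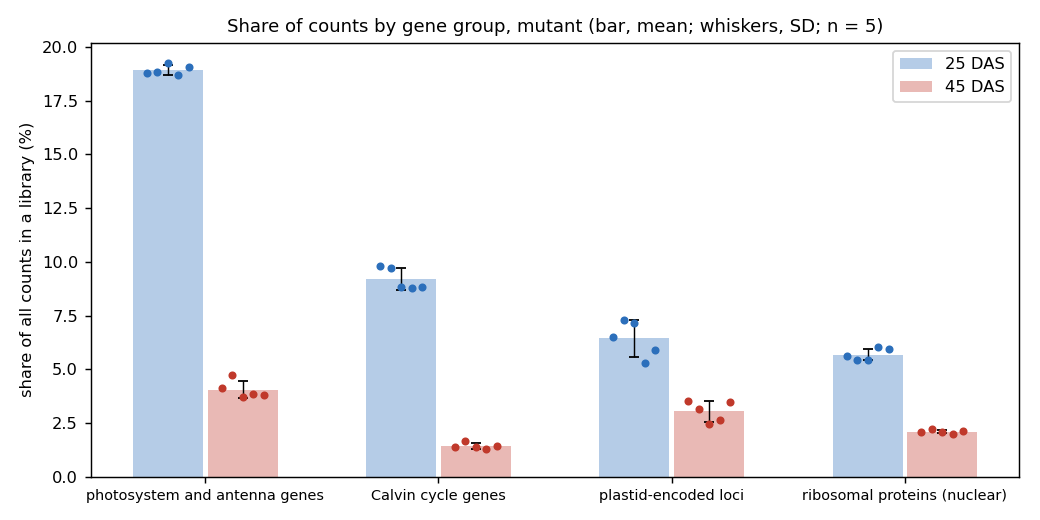
Share of all counts (y axis, %) taken by 4 groups of genes in each mutant library at 25 and 45 DAS; bars are means, whiskers SD over 5 libraries, points are libraries. The photosystem share was 18.9% at 25 DAS and 4.05% at 45 DAS on average, with no overlap between ages in any of the 4 groups.

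Ribosomal protein genes fell. Of 265 tested nuclear genes annotated as ribosomal proteins (of cytosol and plastid), 231 were called lower and 15 higher, with a median of -1.99, and their share of counts went from 5.69% ± 0.27 to 2.1% ± 0.08 (SD, n = 5). EMB3113, a plastid ribosomal protein of the small subunit, stood at 417, 400.0, 404, 400.4 and 422 CPM at 25 DAS and 32.5, 38.1, 34.1, 31 and 38.9 CPM at 45 DAS (log2 change of -3.55 with SE 0.10, adjusted p = 2.27e-16). AT1G77940, a protein of the large cytosolic subunit, went from 472 ± 27.6 to 51.3 ± 3.5 CPM. The family was taken from product names and may hold relatives that are no ribosomal proteins, so the 15 may include such. The 2 risers with the smallest p were AT3G14595 and AT1G17080, both proteins of the L18ae family by annotation, which went from 49.5 ± 5.65 to 185 ± 29.8 CPM and 54.4 ± 2.02 to 157 ± 16.2 CPM. Of 46 tested tRNA synthetases, which load tRNAs with amino acids, 36 were called lower and 6 higher, with a median of -0.90, but under library totals alone the split was 19 lower and 11 higher. Proteasome subunits did not move as a group: 9 of 41 were higher and 12 lower (median -0.12), and with library totals alone 27 were higher and 2 lower.

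Some promoters of these falling genes carry short motifs that are more frequent in their groups than in all tested genes. The 250 bases upstream of the annotated gene start (TAIR10.1) were searched on both strands for 7 motifs. Matches may overlap, and a match describes letters, not binding. Site II (TGGGCC or TGGGCT), known from genes of cell growth, was present in 61.9% of 265 ribosomal protein promoters and in 24.1% of all 13027. The telo-box (AAACCCT) was present in 18.5% of them and in 6.12% of all. The ABRE (ACGTGNC), a site read by ABA bZIP factors, stood in 30.4% of the 46 photosystem promoters and 9.89% of all, the G-box (CACGTG) in 19.6% and 7.61%, and the I-box (GATAAG) in 26.1% and 13.0%. ABRE and G-box matches share bases where they overlap. The following 3 promoters show these motifs in capitals, in EMB3113 (chr2:14302497-14302746, minus strand; telo-box and 3 site II matches), LHCB1.3 (chr1:10477635-10477884, plus strand; 2 overlapping ABRE matches) and LHCA4 (chr3:17495034-17495283, minus strand; an ABRE overlapping a G-box).
EMB3113: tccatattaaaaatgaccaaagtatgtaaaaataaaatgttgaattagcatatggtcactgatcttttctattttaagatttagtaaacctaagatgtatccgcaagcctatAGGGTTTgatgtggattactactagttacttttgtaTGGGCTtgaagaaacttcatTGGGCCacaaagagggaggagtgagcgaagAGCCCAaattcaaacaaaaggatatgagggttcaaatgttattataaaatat
LHCB1.3: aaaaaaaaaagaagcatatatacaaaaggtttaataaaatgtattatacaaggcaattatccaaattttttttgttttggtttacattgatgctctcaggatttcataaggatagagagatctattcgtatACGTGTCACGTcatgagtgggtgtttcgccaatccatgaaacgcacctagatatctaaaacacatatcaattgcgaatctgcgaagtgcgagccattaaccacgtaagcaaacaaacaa
LHCA4: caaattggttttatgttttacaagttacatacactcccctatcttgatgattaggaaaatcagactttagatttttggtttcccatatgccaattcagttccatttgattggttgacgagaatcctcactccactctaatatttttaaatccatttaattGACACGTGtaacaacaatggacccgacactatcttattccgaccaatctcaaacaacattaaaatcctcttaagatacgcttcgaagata
The site II matches of EMB3113 lie 102, 82 and 52 bases before the gene start, and its telo-box 138 bases before it. In LHCB1.3 the ABRE matches lie at 119 and 115 bases, and in LHCA4 the ABRE lies at 90 and the G-box at 88 bases.

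Families of cell expansion were mostly lower among the genes tested. Members near 0 at 45 DAS, such as SAUR50, passed the filter on low counts through their young level alone. They had to be called lower and add no support to the counts in this paragraph. Expansins, which loosen the wall, had 12 of 13 tested genes lower and 0 higher (median -4.63), of 31 members. EXPA6 stood at 289.8, 237, 213, 188 and 168 CPM at 25 DAS and 11.2, 16.2, 10.8, 15.5 and 14.3 CPM at 45 DAS (log2 change of -3.98 with SE 0.17, adjusted p = 4.31e-14). Xyloglucan endotransglucosylases (XTH), which cut and rejoin wall xyloglucan, had 11 of 13 lower. XTH4 went from 453 ± 54.9 to 5.7 ± 5.5 CPM, with 33 counts in older library 2 and 2 to 6 in the other older libraries. XTH24 was 1 of 2 that rose, from 107 ± 19.5 to 1477 ± 235 CPM (log2 change of 3.79 with SE 0.15, adjusted p = 9.72e-13). SAUR genes, small auxin-responsive regulators of expansion, had 19 of 29 lower and 6 higher (median -3.14). SAUR50 went from 52.3 ± 7.47 to 1.09 ± 0.793 CPM, and SAUR59, a riser, from 20.7 ± 5.24 to 81.6 ± 17.9 CPM. SAUR36, which in Arabidopsis promotes senescence, rose by a log2 fold change of 3.35. Aquaporins of the plasma and vacuolar membranes had 15 of 16 lower (median -2.76). GAMMA-TIP, a vacuolar water channel, stood at 692, 674, 611, 510.1 and 559 CPM at 25 DAS and 21.9, 35.1, 26.6, 22.1 and 29.9 CPM at 45 DAS, and TIP2;2 was the 1 that rose, from 49.4 ± 8.09 to 73.7 ± 8.51 CPM, with overlapping libraries. Pectate lyases and related pectin enzymes had 20 of 25 lower and 1 higher.

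The genes for making primary-wall cellulose changed little beside these. All 8 were called lower, but the median was -0.60, and under library totals alone the median was 0.08 with 2 lower and 1 higher. In the cell-cycle list 6 of 17 genes passed the filter on low counts and all 6 were called lower. The others were too rare at either age to test, and genes that pass through their young level alone had to differ. TSO2, a ribonucleotide reductase subunit for DNA synthesis, went from 67.5 ± 4.2 to 3.59 ± 2.34 CPM, and MCM7, of the replication helicase, from 16 ± 2.54 to 0.493 ± 0.523 CPM. Of 38 histones, 29 fell and 6 rose (median -1.06; 22 and 10 under library totals alone). HIS1-3, a linker histone known to be induced by drought, went against the family, at 1.67, 1.9, 4.56, 4.74 and 0.636 CPM at 25 DAS and 495, 449.5, 463, 390.3 and 439 CPM at 45 DAS (log2 change of 7.35 with SE 0.23, adjusted p = 8.20e-14).

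Of 16 tested genes of cuticular wax, 14 were lower and 0 higher (median -1.38). LTPG1, a lipid-transfer protein that helps export wax, went from 194 ± 22.4 to 7.24 ± 2.47 CPM. In the secondary-wall list, which marks xylem, 8 of 22 genes passed the filter, and 7 of them were lower. These 7 had means under 1 CPM at 45 DAS and passed through their young level alone, so they had to differ, and their count is no support for a fall of the list. XCP1, a xylem cysteine protease, stood at 51.8, 33.2, 42.8, 42 and 43.9 CPM at 25 DAS and 0, 2.19, 0, 0 and 0 CPM at 45 DAS. CESA8, a cellulose synthase of the xylem wall, had a mean of 8.69 CPM at 25 DAS and 0 counts in all 5 older libraries and did not pass the filter on low counts. Cytokinin signalling went both ways. The type-A response regulators, feedback repressors that cytokinin itself induces, fell in 7 of 8 tested cases (ARR4, ARR5, ARR6, ARR7, ARR8, ARR9 and ARR15; counted after their values were seen), with ARR6 going from 48.7 ± 8.63 to 4.76 ± 1.89 CPM and ARR9 from 72 ± 7.65 to 8.06 ± 2.66 CPM. AHP4, a phosphotransfer protein, had 0 counts in all younger libraries and 68.8 CPM in the older ones, at least 147-fold higher against a floor of 3 counts over the group. The list as a whole had 12 lower and 8 higher genes of 22, and its median of -0.66 became 0.03 under library totals alone.

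Regulators of senescence rose. Of 16 tested NAC genes tied to senescence, 15 were called higher and 0 lower, with a median of 3.96, against 36.6% higher over all genes. Members near 0 at 25 DAS, such as NAC092, NAC059 and JUB1, passed the filter on low counts through their level at 45 DAS alone. They had to be called higher and add no support to that count. NAC092 (ORE1), which drives age-dependent cell death, stood at 0, 0, 2.73, 2.03 and 1.27 CPM at 25 DAS and 99.3, 65.3, 84.9, 59.1 and 93.5 CPM at 45 DAS (log2 change of 5.90 with SE 0.34, adjusted p = 4.24e-11). The younger libraries were at or near 0 and the older ones all above 59. NAC059, known as a positive regulator of leaf senescence, went from 0.58 ± 0.589 to 73.6 ± 11.9 CPM (log2 change of 6.69 with SE 0.31, adjusted p = 1.51e-13). NAC029 (NAP), which activates chlorophyll breakdown, was already present in young leaves and stood at 11.7, 27.5, 41, 31.8 and 14.6 CPM at 25 DAS and 126, 89.5, 132, 94.9 and 169 CPM at 45 DAS (log2 change of 2.26 with SE 0.32, adjusted p = 1.08e-04). JUB1, a NAC factor that slows senescence, rose as well, from 0.619 ± 0.368 to 25 ± 3.62 CPM. Over the whole NAC family 34 of 37 tested genes were higher and 0 lower (median 2.297), and over the WRKY family 26 of 40 were higher and 2 lower (median 2.19). The same limit holds for family members near 0 at 25 DAS, among them WRKY75 and WRKY26. WRKY75, which promotes senescence, stood at 0, 1.9, 0, 2.03 and 1.27 CPM at 25 DAS and 28, 31.6, 39.9, 33.4 and 44.1 CPM at 45 DAS (log2 change of 4.87 with SE 0.35, adjusted p = 1.33e-10). WRKY26 had 3 counts in all younger libraries and 449 in the older ones, a ratio of 124 (95% counting interval 42.2 to 605). EIN3, the central ethylene factor, rose less but evenly, from 66.9 ± 5.59 to 168 ± 6.85 CPM (log2 change of 1.33 with SE 0.10, adjusted p = 2.18e-10).

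Classical senescence markers mostly rose, with 12 of 14 tested genes higher and 0 lower. SAG13, a short-chain dehydrogenase, stood at 1.67, 4.74, 0.911, 8.13 and 1.27 CPM at 25 DAS and 206, 242, 269, 168 and 136 CPM at 45 DAS (log2 change of 5.87 with SE 0.40, adjusted p = 3.13e-07). SAG12, the cysteine protease most used as a marker, behaved differently. It stood at 16.7, 47.4, 12.8, 62.3 and 12.1 CPM at 25 DAS and 42.6, 80.2, 269, 139.7 and 76.6 CPM at 45 DAS, and the ages overlapped (log2 change of 1.99 with SE 0.67, adjusted p = 0.0246). Without younger library 1, 3 or 5, or without older library 3, its adjusted p was 0.0606, 0.0588, 0.0602 or 0.0517. In counts it had 20, 50, 14, 92 and 19 at 25 DAS and 76, 183, 323, 234 and 59 at 45 DAS in the mutant, against 0, 0, 0, 1 and 1 and then 3691, 3310, 717, 913 and 22297 in wild type. Young mutant leaves had more SAG12 counts than young wild-type leaves, and older mutant leaves fewer than older wild-type leaves. BFN1, a senescence nuclease, and SWEET15 were too low in the mutant to test.

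Most tested genes of chlorophyll breakdown rose. Of 17 tested genes, 11 were called higher and 2 lower (median 1.53). PPH, the pheophytinase that removes the phytol tail, stood at 30.1, 21.8, 41, 42 and 30.5 CPM at 25 DAS and 324, 239, 290.4, 284 and 259.6 CPM at 45 DAS (log2 change of 3.07 with SE 0.15, adjusted p = 3.10e-13). NYE1 (SGR1), which takes magnesium out of chlorophyll, stood at 10.9, 24.6, 15.5, 23 and 13.3 CPM at 25 DAS and 119, 77.6, 87.4, 79.4 and 61 CPM at 45 DAS (log2 change of 2.3 with SE 0.22, adjusted p = 8.44e-08), and CYP89A9, which modifies late breakdown products, went from 4.43 ± 2.19 to 211 ± 35.1 CPM. NYC1, a chlorophyll b reductase, rose from 75.3 ± 8.94 to 219.5 ± 28.9 CPM and PAO, which opens the ring, from 40.7 ± 3.77 to 132 ± 15.3 CPM. The 2 that fell were SGRL, from 245 ± 31.3 to 14.8 ± 5.98 CPM, and HCAR, the reductase of the chlorophyll cycle, from 25.2 ± 3.29 to 10.11 ± 2.93 CPM.

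Proteases of senescence mostly rose. Among the senescence proteases 12 of 15 tested genes were higher and 3 lower, and the summed level of the list went from 1419 ± 81 to 12719 ± 1413 CPM (SD, n = 5). VPEG, the gamma vacuolar processing enzyme that matures vacuolar proteases, stood at 68.5, 73, 64.7, 98.2 and 61 CPM at 25 DAS and 5955, 5120, 5602, 5751 and 4336 CPM at 45 DAS (log2 change of 6.19 with SE 0.14, adjusted p = 2.93e-16). It was among the 5 most abundant nuclear transcripts of the older leaves. RD19C, a papain-like protease, stood at 130.3, 132, 170.4, 159.9 and 132 CPM at 25 DAS and 3181, 2525, 3024, 3056 and 2461 CPM at 45 DAS (log2 change of 4.298 with SE 0.11, adjusted p = 1.40e-16). The 3 that fell were XCP1, XCP2 (both of xylem) and RD21B. DR4, a protease inhibitor-like protein, had 0 counts at 25 DAS and 811 counts at 45 DAS, at least 224-fold higher. Autophagy, which delivers cytoplasm to the vacuole, had 25 of 31 tested genes higher and 1 lower (median 1.11). ATG8A, one of the ubiquitin-like proteins that coat the autophagosome, stood at 35.1, 32.2, 30.1, 25.7 and 29.2 CPM at 25 DAS and 144, 121, 161, 131 and 121 CPM at 45 DAS, though it overlaps another locus with counts, AT4G21990. ATG8E was the exception, at 80.2, 93.8, 100.3, 90.1 and 111 CPM at 25 DAS and 53.3, 47.4, 52.4, 37 and 40.2 CPM at 45 DAS (log2 change of -1.04 with SE 0.13, adjusted p = 4.59e-07). Breakdown of nucleic acids and nucleotides had 11 of 14 tested genes higher and 1 lower, with PYD1 and PYD2 of pyrimidine breakdown going from 21.1 ± 3.87 to 104 ± 15.7 CPM and 12.9 ± 1.6 to 64.2 ± 4.99 CPM.

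**Figure D3:**
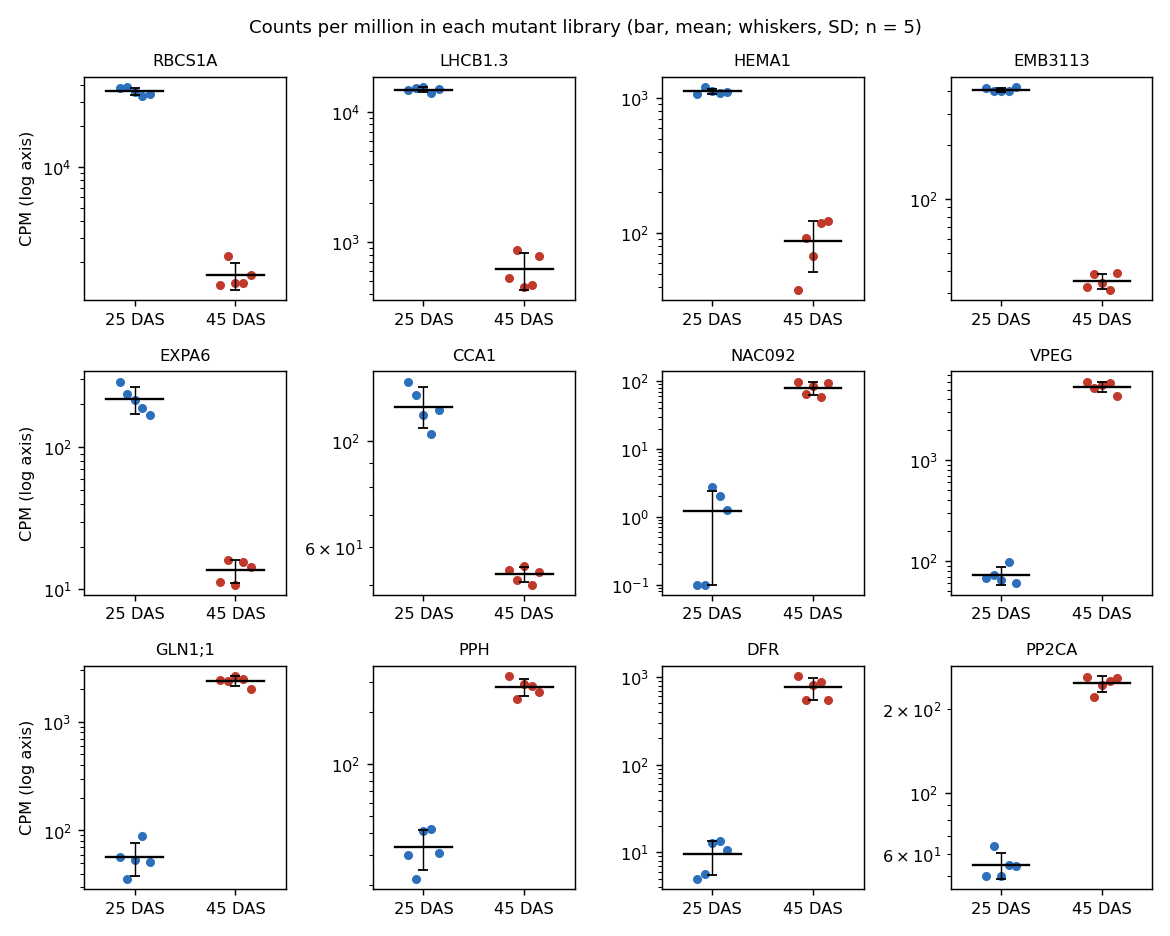
CPM (log y axis) of 12 genes in each of the 10 mutant libraries at 25 and 45 DAS; bars are means, whiskers SD, and values of 0 are drawn at 0.1. RBCS1A went from a mean of 36001 to 1599 CPM and VPEG from 73.1 to 5353 CPM, and no gene shown has overlapping ages.

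Nitrogen metabolism went both ways. Among enzymes of nitrate assimilation, picked out after their values were seen, the nitrate reductase NIA1 fell by 3.42, its relative NIA2 fell by 2.24 and the nitrite reductase NIR1 fell by 3.36 (log2). ASN2, an asparagine synthetase, went from 133 ± 15.7 to 4.32 ± 1.28 CPM. GLN1;1, a cytosolic glutamine synthetase that makes glutamine for transport, stood at 56.8, 36, 53.8, 88.1 and 50.8 CPM at 25 DAS and 2401, 2382, 2640, 2449 and 1978 CPM at 45 DAS (log2 change of 5.36 with SE 0.21, adjusted p = 4.60e-10). GLN1;4, of the same family, went from 20.4 ± 3.48 to 787 ± 105 CPM, and DUR3, a urea transporter, from 3.28 ± 1.28 to 191 ± 11 CPM. Among further transporters, picked out after their values were seen, LHT1, an amino acid importer, rose by 3.68 and the nitrate transporters NRT2.5 and NRT1.7 by 5.30 and 2.84 (log2). In total 11 of 23 tested genes were higher and 8 lower. Amino acid breakdown had 13 of 24 genes higher and 5 lower, with BCKDHE1A1, of the branched-chain complex, going from 25.9 ± 1.61 to 149.5 ± 11.5 CPM and PRODH2, a proline dehydrogenase, going from 2.56 ± 1.05 to 113 ± 21 CPM. DIN4, another subunit of that complex, fell from 18 ± 4.46 to 7.58 ± 2.89 CPM.

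Starch metabolism had 18 of 27 tested genes higher and 7 lower. PHS2, a cytosolic glucan phosphorylase, stood at 38.4, 37.9, 35.5, 42 and 33 CPM at 25 DAS and 597, 544, 524, 582 and 509 CPM at 45 DAS (log2 change of 3.88 with SE 0.10, adjusted p = 1.40e-16), and SEX4, which removes phosphate from glucans during breakdown, went from 21.9 ± 4.77 to 350.3 ± 27 CPM. APL1, a subunit of the enzyme that makes ADP-glucose, went from 233 ± 8.85 to 48 ± 9.88 CPM. GPT2, which carries glucose phosphate into plastids, rose from 0.985 ± 1.14 to 118 ± 29.1 CPM, and TPT, which exports triose phosphate from chloroplasts, fell from 5092 ± 442 to 1501 ± 91 CPM. Among sugar carriers 10 of 19 tested rose and 6 fell. STP13, a hexose importer, was one of the 8 largest rises among genes with at least 5 CPM in the lower group, from 8.09 ± 2.57 to 424 ± 125 CPM. SWEET13, a sucrose exporter, went from 2.38 ± 0.886 to 82 ± 15.7 CPM. SWEET2, of the vacuolar membrane, stood at 54.3, 46.5, 41, 42.7 and 40 CPM at 25 DAS and 3.37, 1.75, 2.5, 0 and 1.3 CPM at 45 DAS (log2 change of -4.56 with SE 0.29, adjusted p = 2.41e-11). In the sugar-signalling list 6 of 16 genes rose and 7 fell (median -0.42, and 0.26 under library totals alone). KIN10, a catalytic subunit of the SnRK1 energy kinase, rose from 28.4 ± 2.69 to 87.2 ± 5.38 CPM, and DIN10, a dark-induced gene, fell from 150.5 ± 49.4 to 10.9 ± 4.33 CPM.

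Of 15 tested genes of ABA metabolism, 10 were higher and 3 lower. AAO3, the last enzyme of synthesis, went from 13.1 ± 6.42 to 24.4 ± 5 CPM with overlapping libraries, and ABA2, the step before it, fell from 23.4 ± 5.71 to 5.76 ± 0.954 CPM. CYP707A4, an ABA 8'-hydroxylase, had 0 counts at 25 DAS and 8.54 CPM at 45 DAS. NCED3, a rate-limiting enzyme of synthesis, had a mean of 3.06 CPM at 25 DAS and 23.9 ± 19.8 CPM at 45 DAS and did not pass the filter on low counts. Of 8 tested receptors 1 was higher and 4 lower (median -0.44, and 0.23 under library totals alone): PYL9 went from 25.6 ± 5.31 to 117 ± 17.1 CPM and PYL4 from 107 ± 36.5 to 33.1 ± 7.45 CPM. All 6 tested clade A PP2C phosphatases, which hold the pathway off, were higher (median 1.96). PP2CA stood at 50.1, 64.5, 50.1, 54.9 and 54.7 CPM at 25 DAS and 262, 221, 246, 252.5 and 258 CPM at 45 DAS (log2 change of 2.17 with SE 0.10, adjusted p = 1.68e-13). Of the 6 tested SnRK2 kinases 4 were higher and 1 lower. SNRK2.2, one of the 3 that ABA activates most, stood at 50.1, 39.8, 56.5, 62.3 and 59.7 CPM at 25 DAS and 272, 242, 283, 295 and 267 CPM at 45 DAS (log2 change of 2.33 with SE 0.12, adjusted p = 4.01e-13). SNRK2.6 (OST1) stood at 18.4, 21.8, 17.3, 23 and 21.6 CPM at 25 DAS and 24.7, 19.7, 21.6, 18.5 and 18.2 CPM at 45 DAS and was not called (log2 change of 0.01 with SE 0.17, adjusted p = 0.967). The one that fell was SNRK2.10 itself (log2 change of -0.58 with SE 0.14, adjusted p = 0.00131), which became 0.10 under library totals alone. ABF1 and ABF3, bZIP factors that read the ABRE, rose from 4.94 ± 2.79 to 41.2 ± 7.17 CPM and 8 ± 1.59 to 30.3 ± 7.78 CPM.

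Dehydration protectants had 15 of 18 tested genes higher and 2 lower (median 2.72). RD29A, a gene used as a reporter of drought and cold, stood at 2.5, 8.53, 5.47, 6.1 and 3.81 CPM at 25 DAS and 111, 67.1, 71.6, 102 and 72.7 CPM at 45 DAS (log2 change of 4.02 with SE 0.24, adjusted p = 1.37e-11). ERD14, an acidic dehydrin, stood at 294, 338, 360.0, 328 and 250.4 CPM at 25 DAS and 2172, 2106, 2315, 2994 and 2286 CPM at 45 DAS (log2 change of 2.92 with SE 0.12, adjusted p = 2.03e-14), and GOLS2, which makes galactinol and was picked out after its values were seen, went from 2.3 ± 1.94 to 748 ± 42 CPM. P5CS1, a key enzyme of proline synthesis, fell from 37.7 ± 6.54 to 7.43 ± 1.62 CPM, as did RD22 (log2 change of -0.88 with SE 0.25, adjusted p = 0.0108).

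The list of salicylic acid and defence genes had 18 of 21 tested genes higher and 1 lower (median 2.05). The 1 that fell was PDF1.2, a defence gene of the jasmonate and ethylene response and not of the salicylic acid pathway. It had 352, 19, 21, 29 and 118 counts at 25 DAS and 42, 12, 2, 4 and 1 at 45 DAS. ICS1, which makes the precursor of salicylic acid, went from 14.2 ± 2.71 to 49.9 ± 10.4 CPM. PR1, the standard marker of the response, stood at 2.5, 4.74, 18.2, 21.7 and 4.45 CPM at 25 DAS and 222, 299, 206, 146 and 101 CPM at 45 DAS (log2 change of 4.23 with SE 0.54, adjusted p = 8.86e-05), and PAD4, a regulator upstream, went from 14 ± 3.15 to 86 ± 13.8 CPM. DLO1, which hydroxylates salicylic acid, rose from 1.35 ± 0.782 to 62.3 ± 14.5 CPM. Jasmonate had 21 of 28 tested genes higher and 2 lower (median 1.87), among them MYC3, a factor of the response, from 48.5 ± 1.9 to 154 ± 9.87 CPM. The 2 falls of the jasmonate list, which does not hold PDF1.2, were transcripts abundant in the young leaf. These were LOX2, a plastid lipoxygenase of synthesis, from 343 ± 69.6 to 134 ± 27.3 CPM, and VSP2, a storage protein that jasmonate induces, which stood at 26.7, 109, 238, 163 and 144 CPM at 25 DAS and 4.49, 4.82, 4.99, 5.37 and 1.3 CPM at 45 DAS (log2 change of -4.89 with SE 0.65, adjusted p = 1.25e-04). Ethylene had 6 of 11 higher and 2 lower.

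Anthocyanin genes rose. Of 20 tested genes of flavonoid synthesis 14 were higher and 5 lower (median 3.40). DFR, the first enzyme of the anthocyanin branch, stood at 5.01, 5.69, 12.8, 13.6 and 10.8 CPM at 25 DAS and 1034, 549.9, 805, 879.8 and 552 CPM at 45 DAS (log2 change of 6.28 with SE 0.31, adjusted p = 3.28e-08). TT19, a transferase that helps move anthocyanin to the vacuole, went from 8.65 ± 4.76 to 512 ± 131 CPM, and PAP2, a MYB activator of the branch, from 0.859 ± 1.11 to 177 ± 31.5 CPM. TT4, chalcone synthase at the entry, stood at 569, 557, 445, 417 and 369 CPM at 25 DAS and 2411, 1205, 1716, 1896 and 1164 CPM at 45 DAS (log2 change of 1.83 with SE 0.23, adjusted p = 4.86e-05). Of the falls, FLS1, flavonol synthase, went from 28 ± 2.42 to 1.09 ± 0.717 CPM, and PAL2, of the phenylpropanoid entry, from 192 ± 20.2 to 89 ± 10.8 CPM. The others were PAL1, C4H and 4CL3. Aliphatic glucosinolate synthesis, of the sulfur compounds that deter herbivores, had 15 of 24 genes higher and 5 lower, with BCAT4 going from 80 ± 13.2 to 448 ± 49.8 CPM. The myrosinases that activate glucosinolates fell, TGG1 from 1836 ± 128 to 30.9 ± 23.9 CPM and TGG2 from 1295 ± 156 to 13.8 ± 16.5 CPM.

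Transcripts of peroxisomal beta-oxidation, which breaks down fatty acids, rose moderately, with 12 of 17 tested genes higher and 3 lower (median 0.62). The summed level of the list changed little, from 1830 ± 33 to 2017 ± 110 CPM. KAT2, the thiolase of beta-oxidation, went from 83.6 ± 10 to 277 ± 19.9 CPM. Of the 3 catalases, which remove hydrogen peroxide, 1 fell and 2 rose. CAT2, the catalase of photorespiration, stood at 1255, 1424, 1131, 994 and 1047 CPM at 25 DAS and 588, 504, 499, 590.3 and 434 CPM at 45 DAS (log2 change of -1.16 with SE 0.11, adjusted p = 6.63e-09). CAT3 stood at 737, 645, 740.1, 835 and 866 CPM at 25 DAS and 5006, 4742, 4454, 4830 and 4064 CPM at 45 DAS (log2 change of 2.59 with SE 0.09, adjusted p = 3.48e-15) and was among the 5 most abundant nuclear transcripts of the older leaves. CAT1 went from 20.7 ± 2.2 to 39.8 ± 2.61 CPM (log2 change of 0.94 with SE 0.14, adjusted p = 6.32e-06). Among plastid antioxidants, CSD2, a superoxide dismutase, went from 958 ± 43.1 to 34.6 ± 6.89 CPM and 2CPA, a peroxiredoxin, from 1376 ± 83 to 64.7 ± 13.7 CPM. The antioxidant list had 13 lower and 4 higher genes of 19. Under library totals alone it had 9 lower and 7 higher. Metallothioneins, which bind metals, were among the most abundant transcripts of the older leaf, with MT3 at 1858, 1938, 1984, 1755 and 1514 CPM at 25 DAS and 12716, 11863, 10761, 11957 and 10582 CPM at 45 DAS (log2 change of 2.68 with SE 0.09, adjusted p = 1.25e-15) and MT2A going from 165 ± 11.9 to 1770 ± 169.6 CPM. In the phosphate list 8 of 11 tested genes rose and 1 fell, with MGD3, which makes galactolipid when phosphate is short, going from 0.554 ± 0.819 to 54.8 ± 11.4 CPM.

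Clock genes went both ways, with 8 of 16 tested higher and 7 lower. CCA1 and LHY, which peak at dawn, fell, CCA1 standing at 133, 124, 113, 103 and 116 CPM at 25 DAS and 53.8, 51.3, 54.9, 50.1 and 53.2 CPM at 45 DAS (log2 change of -1.16 with SE 0.11, adjusted p = 5.38e-09) and LHY going from 103 ± 28 to 22 ± 3.66 CPM. GI, of the evening, rose from 12.5 ± 2.95 to 78.6 ± 11.8 CPM, and CCR2 (GRP7), an evening-phased RNA-binding protein, stood at 39.2, 42.7, 49.2, 40 and 33.7 CPM at 25 DAS and 619, 633, 624, 728 and 810.0 CPM at 45 DAS (log2 change of 4.06 with SE 0.12, adjusted p = 2.93e-16). The labels do not give the hour of harvest, so age and time of day cannot be told apart for these genes. The same limit holds for every other gene in the text whose level varies over the day. The flowering signal FT had 3 counts in the younger libraries together and 337 in the older ones (ratio 93.2, 95% counting interval 31.6 to 454). Its relative TSF had 0 counts at 25 DAS and 27, 64, 44, 42 and 16 at 45 DAS, at least 53.4-fold higher. FUL, a MADS factor of flowering, rose from 4.09 ± 1.68 to 37 ± 5.42 CPM and SNZ, a repressor of flowering, fell from 29.5 ± 2.31 to 10.5 ± 1.97 CPM.

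The promoters of 3 genes that rose are shown with their motifs in capitals, since ABRE letters were found among rising as well as falling groups: NAC029 (chr1:26121830-26122079, plus strand; an ABRE overlapping a G-box), PP2CA (chr3:3585851-3586100, minus strand; 3 ABRE matches, 1 of them overlapping a G-box) and CCR2 (chr2:9266558-9266807, minus strand; 3 matches to the evening element core, AATATCT, known from evening-phased genes).
NAC029: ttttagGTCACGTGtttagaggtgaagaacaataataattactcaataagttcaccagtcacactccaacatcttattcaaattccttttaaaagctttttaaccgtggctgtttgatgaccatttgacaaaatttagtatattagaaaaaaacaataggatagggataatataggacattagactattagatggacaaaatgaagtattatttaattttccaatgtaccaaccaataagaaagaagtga
PP2CA: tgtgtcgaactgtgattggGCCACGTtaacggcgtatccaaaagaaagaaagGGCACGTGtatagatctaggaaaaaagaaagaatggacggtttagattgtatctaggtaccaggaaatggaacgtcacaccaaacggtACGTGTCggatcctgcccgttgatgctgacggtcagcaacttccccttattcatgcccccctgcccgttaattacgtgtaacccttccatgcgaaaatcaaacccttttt
CCR2: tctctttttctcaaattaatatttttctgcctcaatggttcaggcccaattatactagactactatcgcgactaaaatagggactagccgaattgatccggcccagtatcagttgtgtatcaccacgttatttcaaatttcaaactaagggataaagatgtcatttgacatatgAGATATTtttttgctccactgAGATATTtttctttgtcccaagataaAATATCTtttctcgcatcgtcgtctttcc
In NAC029 the ABRE lies 244 bases before the gene start, in PP2CA the matches lie at 231, 198 and 110 bases, and in CCR2 the evening element cores lie at 76, 55 and 29 bases. The ABRE was present in 32.4% of 37 tested NAC promoters and in 43.8% of the 16 clock promoters, a list that went both ways. Over all tested genes it stood in 9.89%, in 12.9% of those that rose at least 4-fold and in 9.67% of those that fell at least 4-fold. Rising lists varied, with 4.76% for salicylic acid and defence, 10% for WRKY factors, 10% for flavonoids and 19.4% for autophagy. The evening element core stood in 37.5% of the clock promoters and 10.4% of all. The W-box (TTGACC or TTGACT), read by WRKY factors, was present in 32.6% of the promoters of genes that rose at least 4-fold and in 21.1% of those that fell at least 4-fold, with 28.1% over all tested genes. Site II stood in 12.8% and 24.1% of the same groups.

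**Figure D4:**
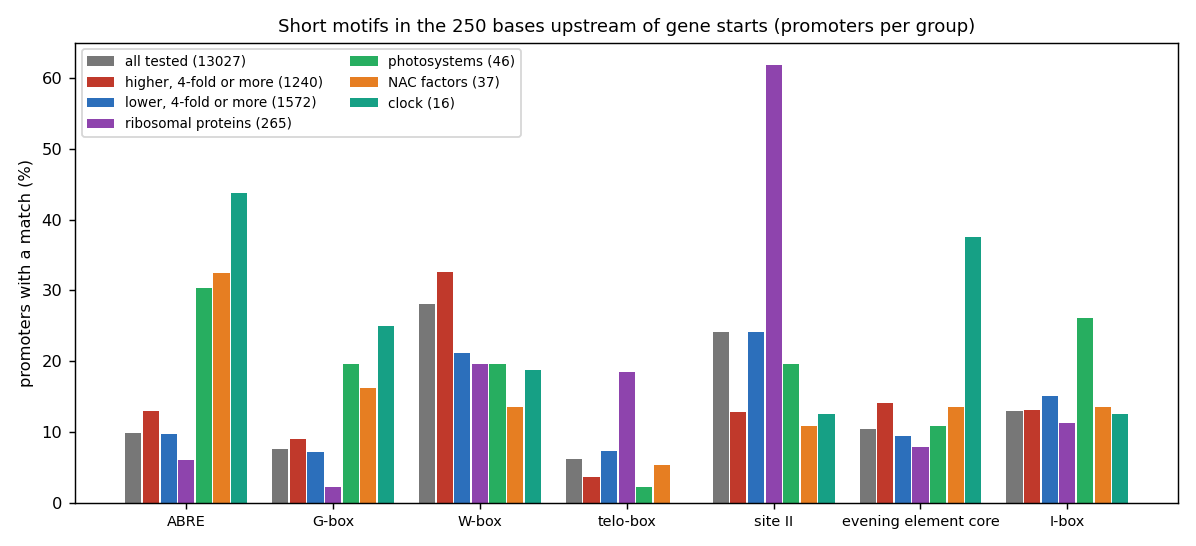
Share of promoters (y axis, %) that hold a match to each of 7 motifs (x axis) in the 250 bases upstream of the gene start, for all tested genes, genes that rose or fell at least 4-fold, and 4 lists (number of promoters in the legend). Site II reaches 61.9% among ribosomal protein promoters, against 24.1% over all tested genes.

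Families that modify small molecules had more genes called higher than lower, beside 36.6% higher and 35.9% lower over all tested genes. Members near 0 at 25 DAS, such as GSTU10, passed the filter on low counts through their level at 45 DAS alone. They had to be called higher and add no support to the counts in this paragraph. Cytochromes P450 had 50 of 78 tested genes higher and 15 lower, glycosyltransferases of the UGT family 31 of 59 higher and 11 lower, glutathione S-transferases 18 of 32 higher and 5 lower, and MATE transporters 14 of 23 higher and 5 lower. CYP71B4 went from 5.71 ± 1.75 to 170.1 ± 12.4 CPM, UGT72E1 from 18.6 ± 4.49 to 339 ± 32.1 CPM and the transferase GSTU10 from 0.77 ± 0.501 to 44.9 ± 9.36 CPM. Lipid-transfer proteins went the other way, with 17 of 29 lower and 8 higher. Heat shock proteins were mixed, with 12 of 38 higher and 18 lower (18 and 9 under library totals alone).

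Among genes with a mean of at least 5 CPM in the lower group and no overlap, the largest rises outside the lists were AT1G80130, a tetratricopeptide-repeat-like protein, which stood at 15, 24.6, 19.1, 26.4 and 12.1 CPM at 25 DAS and 2540, 2663, 2683, 2738 and 2129 CPM at 45 DAS (log2 change of 7.04 with SE 0.19, adjusted p = 6.71e-14). Others were AT1G76960 from 18.3 ± 9.64 to 1744 ± 327 CPM and AT1G64360 from 12.1 ± 3.12 to 945 ± 119 CPM. Within the same limit, the largest falls included, besides LHCB2.3, AGP21, an arabinogalactan protein, from 865 ± 210.0 to 8.33 ± 7.65 CPM, DELTA-TIP, a vacuolar aquaporin, from 1475 ± 223 to 15.6 ± 14.9 CPM, and AT2G10940, from 4957 ± 717 to 57.5 ± 65.1 CPM. Much of what remained of these genes at 45 DAS lay in older library 2. It had 187 counts of LHCB2.3 (10 to 23 in the other older libraries) and 48 of AGP21 (2 to 8). DELTA-TIP had 95 counts there (7 to 20 in the others) and AT2G10940 had 380 (19 to 53). Means and SD of these falls at 45 DAS therefore rest largely on that library, and their ranking without it was not tested. Detected at 25 DAS and at 0 counts in all 5 older libraries were EXLA2, an expansin-like gene (23.6 CPM at 25 DAS), SAUR29 (20.4 CPM) and the peroxidase AT5G51890 (25.2 CPM).

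Whether ageing differed from that of wild type was tested as a genotype by age interaction over all 20 libraries, in which no library is shared between the age contrasts. The fit used 1 dispersion per gene for all 4 groups, a spread that the groups did not share. The biological coefficient of variation was 10.8% in wild type at 25 DAS, 30.3% in wild type at 45 DAS, and 13.3% and 19.3% in the mutant. Of the 465 calls below, 394 were also made in the same direction by limma voom with a variance per group. Of 14503 genes tested, 465 (3.21%) were called, 266 (1.83%) positive, a log2 change with age that was higher in the mutant, and 199 (1.37%) negative. Of the called genes 384 also changed with age in the mutant. Of 46 photosystem genes 16 fell less in the mutant and 0 fell more, and 45 had a positive value, with a median of 1.01 (log2). LHCA4 had a log2 fold change of -4.296 in wild type and -2.94 in the mutant (interaction 1.36, SE 0.37, adjusted p = 0.045). LHCB5 had values of -4.51 and -3.24 (interaction 1.27, SE 0.36, adjusted p = 0.0487). Of 17 genes of chlorophyll breakdown 7 were called, all negative, with NYE1 at 4.85 in wild type and 2.28 in the mutant (interaction -2.57, SE 0.65, adjusted p = 0.0395). NYC1 stood at 3.09 and 1.53 (interaction -1.56, SE 0.40, adjusted p = 0.0395) and PAO at 2.496 and 1.68. PES1 and PES2, which esterify phytol and were picked out after their values were seen, had interactions of -5.20 and -2.04. Single genes near the threshold were not stable: when 1 of the 20 libraries was left out in turn, LHCA4 and LHCB5 lost their call in 18 of the 20 fits, NYC1 and PAO in 16, NYE1 in 13 and PES2 in 11, and PES1 in 0. The counts moved with single libraries as well: leaving out 1 of the 20 at a time gave 3 to 44 called photosystem genes (44 without wild-type library 1 at 45 DAS, 3 without mutant library 2 at 45 DAS) and 2 to 7 chlorophyll breakdown genes, all in the same direction. The medians stayed between 0.88 and 1.58 and between -0.85 and -0.50.

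**Figure D5:**
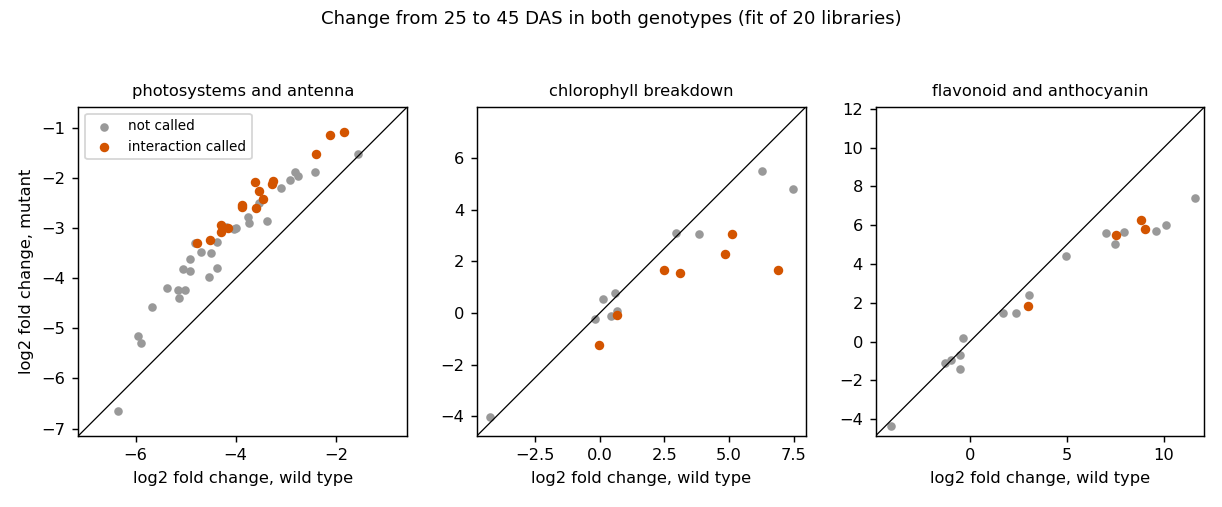
Log2 fold change from 25 to 45 DAS in wild type (x axis) and in the mutant (y axis) for genes of 3 lists, from the fit of 20 libraries; the line marks equal change and orange points were called in the interaction. Of the 46 photosystem genes 45 lie above the line, and 7 of 17 chlorophyll breakdown genes were called below it.

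Of 20 flavonoid genes 4 were called, all negative: DFR (interaction -2.54, SE 0.42, adjusted p = 0.00159), TT19 (-3.21), TT4 (-1.19) and LDOX (-2.01). LDOX lost its call in 10 of the 20 fits that left out 1 library, and the other 3 in 0. Among the senescence NAC genes 0 of 18 tested were called (edgeR), with a median of -0.77. Of these 1 had an unadjusted p under 0.05 in edgeR, 5 in DESeq2 and 2 in limma voom. DESeq2 called 1 and limma voom 0, and 0 were called by edgeR when any 1 library was left out. The lack of edgeR calls does not show that these genes changed equally in both genotypes. SAG12 had the largest difference of the genes named, 13.58 in wild type against 1.99 in the mutant (interaction -11.59, SE 1.74, adjusted p = 0.0021). Its counts in young wild type, given above, were at or near 0, and those in older wild type spread widely. The size of this difference is therefore not well fixed. Among genes that changed with age in the mutant, some of the smallest p-values were those of EBP, an ethylene response factor, with -0.21 for wild type against 1.73 for the mutant (interaction 1.94, SE 0.23, adjusted p = 1.18e-04), FBA5, a fructose-bisphosphate aldolase (2.19, SE 0.28, adjusted p = 1.18e-04) and GRP-3, a glycine-rich protein (1.67, SE 0.22, adjusted p = 1.18e-04; its fall in the mutant turned to 0.16 under library totals alone). In the other direction they were those of AT3G21690, a MATE transporter (-1.36, SE 0.18, adjusted p = 1.18e-04), SR1 (AT5G01820), a CBL-interacting protein kinase (-2.07, SE 0.28, adjusted p = 1.88e-04), and UGT84A2, a glycosyltransferase (-1.72, SE 0.26, adjusted p = 6.43e-04). SWEET2 had -0.56 in wild type and -4.57 in the mutant (interaction -4.01, SE 0.79, adjusted p = 0.0122). ARR6 (2.26, SE 0.35, adjusted p = 8.96e-04) and SNRK2.10 (-0.86, SE 0.19, adjusted p = 0.0156) were called as well, and SNRK2.4 had a change of 1.08 for wild type against -1.10 for the mutant (interaction -2.18, SE 0.45, adjusted p = 0.00969). SNRK2.4 is itself mutated and had only 2 to 9 counts per mutant library. It did not pass the filter on low counts in the fit of the mutant alone. Its mutant value is therefore not well fixed and does not describe how an intact SNRK2.4 would change with age.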

How the data were processed

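The files hold counts per locus, deposited by the authors with no normalization. Per the submitters' processing notes, reads were aligned with STAR 2.7.8a to TAIR10; the counting tool, annotation, strand setting and use of the molecular identifiers are not given in the sources used here. Of 37336 loci 37051 matched the TAIR10.1 annotation, from which names and promoters (with its genome) were taken.

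Libraries were grouped by their titles. Counts of the 10 mutant libraries were filtered (filterByExpr by age), scaled by TMM and tested with edgeR 4.0.16 (R 4.3.3, limma 3.58.1): robust quasi-likelihood F-test, Benjamini-Hochberg threshold 0.05 over all genes tested, SE as log2 fold change over the square root of F. The genotype by age interaction used all 20 libraries. Shares of counts were compared by exact permutation. A floor of 3 counts was 1.91 to 2.84 CPM per library at 25 DAS, 1.32 to 3.89 CPM at 45 DAS, and 0.469 and 0.389 CPM over 5 libraries; intervals and floors cover counting error only. Data were simulated from the same means, with 200 genes changed and 1 spread per gene for all groups. The age test recovered 25.4% of 1.5-fold, 68.7% of 2-fold and 86.4% of 4-fold changes there, with 11 false calls among 131. The interaction test recovered 0%, 34.3% and 86.4%, with 2 false calls among 82. In the real data 72.5% of genes were called with age. The adjusted threshold depends on that share, and the real groups differ in spread, so these rates do not give the recovery in the real data.

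The members, the 47 gene lists and 22 families were chosen with earlier results of these data known. Lists were described by counts and medians, without a test. Named were the 8 highest and 8 lowest log2 fold changes among called genes with no overlap and at least 5 CPM in the lower group, the 5 highest loci at 0 counts at the other age, the 5 most abundant nuclear loci per age, in each list the 2 called members of smallest p per direction, preset key genes, and the 5 smallest interaction p-values per direction among genes changed with age. Others are said to be picked after seeing values where they occur, as are NIA1, LHT1, NRT2.5, NRT1.7, SAUR36, PAL1, C4H, 4CL3, XCP2, RD21B and LDOX. No 2 libraries agreed within counting noise. Libraries with the same replicate number deviated together only weakly. Alternatives were DESeq2 1.42.0, other scalings and filters, thinning, a replicate block, limma voom and leaving out each library; scaling by library totals alone was added after seeing the data. Tables and figures used Python 3.11.15, pandas 2.3.3, NumPy 2.4.6, SciPy 1.17.1 and matplotlib 3.10.9.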

Additional observations from a re-analysis of the deposited data

Results flagged for a closer look

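Of 340 groups of 5 values checked with Dixon's criterion (critical value 0.71), 25 held a library that stood apart from the other 4; chance alone flags about 1 in 20 groups. In younger library 1 this was KAT2 at 66 CPM (the other 4 at 86.3 to 90.9) and MT2A at 144.5 CPM (the other 4 at 166.8 to 172.9). In younger library 2 this was ARR4 at 106.2 CPM (the other 4 at 126.9 to 128.5), BFN1 at 11.4 CPM (the other 4 at 5.85 to 6.38) and TGG1 at 1611 CPM (the other 4 at 1860 to 1918). In younger library 4 this was ARR15 at 21.7 CPM (the other 4 at 29.2 to 31.8) and TT19 at 16.9 CPM (the other 4 at 4.74 to 7.63). In younger library 5 this was UGT84A2 at 17.2 CPM (the other 4 at 29.4 to 30.5) and DLO1 at 0 CPM (the other 4 at 1.35 to 1.9). In older library 2 this was RBCS1A at 2215 CPM (the other 4 at 1365 to 1610), DELTA-TIP at 41.7 CPM (the other 4 at 4.18 to 11.7), ARR9 at 12.7 CPM (the other 4 at 6.49 to 7.85), XCP1 at 2.19 CPM (the other 4 at 0), TGG2 at 42.5 CPM (the other 4 at 1.79 to 11.7), TGG1 at 72.3 CPM (the other 4 at 14.9 to 29.9) and RBCS3B at 730.5 CPM (the other 4 at 254.9 to 388.1). In older library 4 this was CAT1 at 35.2 CPM (the other 4 at 40.4 to 41.5), ARR7 at 22.7 CPM (the other 4 at 25.9 to 26.9), ERD14 at 2994 CPM (the other 4 at 2106 to 2315), NIA1 at 11.3 CPM (the other 4 at 18.4 to 20.8) and NAC059 at 53.1 CPM (the other 4 at 75 to 83.2). In older library 5 this was KIN10 at 77.9 CPM (the other 4 at 87.7 to 90.8), VSP2 at 1.3 CPM (the other 4 at 4.49 to 5.37), RD21B at 13 CPM (the other 4 at 8.32 to 9.21) and SWEET13 at 54.5 CPM (the other 4 at 85.1 to 92.5). 

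Of the genes described, 37 had a change with age that differed between the genotypes by the interaction test (edgeR, adjusted p under 0.05; mutant minus wild type, log2). It was negative for HCAR (-1.21), SNRK2.4 (-2.18, with 2 to 9 counts per mutant library), NRT2.5 (-2.77), PES1 (-5.20), GOLS2 (-2.84), SNRK2.10 (-0.86), AT1G80130 (-1.88), KAT2 (-0.91), SWEET2 (-4.01), UGT84A2 (-1.72), AT3G21690 (-1.36), ELIP1 (-2.005), PES2 (-2.04), PAO (-0.81), NYC1 (-1.56), LDOX (-2.01), NYE1 (-2.57), SR1 (-2.07), TT4 (-1.19), TT19 (-3.21), DFR (-2.54) and SAG12 (-11.59). It was positive for ARR4 (0.84), ARR7 (0.99), GRP-3 (1.67), SNZ (1.31), EBP (1.94), LHCA4 (1.36), UGT72E1 (1.02), CRD1 (1.09), LHCB5 (1.27), TIP2;2 (1.16), FBA5 (2.19), APL1 (0.74), RD22 (1.41), TPT (1.04) and ARR6 (2.26). Many of these calls rest on single libraries. When each of the 20 libraries was left out in turn, 18 of the 37 genes kept the call in all 20 fits. CRD1, LHCA4 and LHCB5 lost it in 18 fits, NYC1 and PAO in 16, NRT2.5, KAT2 and APL1 in 15, ARR4 and NYE1 in 13, GOLS2 in 12, PES2 in 11, and UGT72E1 and LDOX in 10. RD22 lost it in 7, TPT in 6, ARR7 in 5, SNZ in 3 and SNRK2.10 in 1.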

How the results depend on the processing

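The count of genes changed with age in the mutant (9507) was 9159 with DESeq2's Wald test, 9501 with DESeq2 size factors, 9515 with upper-quartile scaling, 12764 of 22769 with every gene of at least 1 count, 6608 of 9336 with counts thinned to the smallest library (fewer genes tested) and 9484 with the replicate block. Leaving out 1 library gave 9362 to 9689 genes, 4676 to 4865 higher and 4673 to 4824 lower. Scaling by library totals alone, added after seeing the data, gave 7606 higher and 2935 lower genes, so that 72.2% of the calls were higher in place of 50.5%. All 4804 higher calls remained higher, 2935 lower calls remained lower and 120 turned from lower to higher; the scaling moves all genes by about 0.68 by construction. Under it the fall of SNRK2.10 turned to 0.10 and that of GRP-3 to 0.16, and the list medians turned for sugar signalling (0.26), ABA receptors (0.23), cytokinin (0.0257), cellulose synthases of the primary wall (0.0826), proteasome (0.56) and heat shock proteins (0.34). In thinned counts the medians turned for cytokinin (0.0749), heat shock proteins (0.12) and class III peroxidases (-0.3225), and with every gene of at least 1 count for class III peroxidases (-1.02) and nitrogen (-0.0188); the cause was not tested. Of 3245 alternative values of single genes with age, 3230 kept direction and call, 12 lost the call, 1 gained it and 2 reversed.

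The interaction was less stable. Its 465 genes became 660 with DESeq2 (301 negative), 554 with limma voom and a variance per group, 192 in thinned counts (131 positive, 61 negative) and 464 with the replicate block. Leaving out 1 library gave 262 (without mutant library 2 at 45 DAS) to 1195 (without wild-type library 1 at 45 DAS), with 163 to 932 positive and 88 to 263 negative. Of 1036 alternative values of 37 single interactions 764 kept their call, 272 lost it and 0 reversed. The plastid share differed by -3.675 to -3.175 percentage points and the mitochondrial share by -0.043 to -0.0269 when 1 library was left out; without the 10 most abundant loci the mitochondrial difference was -0.0434 (exact permutation p = 0.0317). Libraries with the same number deviated together only weakly, with correlations of 0.196, 0.030, -0.006, 0.13 and 0.034. At both ages libraries 1 and 4 differed most (chi-square per degree of freedom 4.18 at 25 DAS and 8.32 at 45 DAS) and libraries 4 and 5 least (1.75 and 2.28). Whether the numbers follow an order of harvest or handling was not tested. Depth limits genes near 3 counts per library.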
